A study of Mus musculus with 16 samples.

Results

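The 8 genes described here belong to the mouse Cyp3a family of cytochromes P450, followed here in liver RNA of both sexes of the strain C57BL/6J under a normal and a high fat diet. They are Cyp3a11, Cyp3a13, Cyp3a16, Cyp3a25, Cyp3a41a, Cyp3a41b, Cyp3a44 and Cyp3a59, taken by symbol from 78317 listed genes, of which 51487 carried a symbol and 11 a Cyp3a symbol. The family was chosen from earlier results of these data, in which Cyp3a11 had one of the largest falls in males on the high fat diet. Which values were used is not stated. The female diet values may have been among them, so the female tests may not be independent of the choice. The male high fat levels are taken below as the values through which the family was chosen. Comparisons that contain the males on the high fat diet (the diet in males, the sexes on the high fat diet, and the difference of the diet changes between the sexes) are therefore given below as descriptions, with no p for a member. Where members past the threshold are counted in them, the share over all genes stands beside the count and nothing is read from it. The other Cyp3a rows were Cyp3a57, with at most 0.62 TPM in any library, Cyp3a63-ps, with at most 3.28 TPM in females and 0 in males, and Cyp3a61-ps1, listed at 0 throughout. TPM divides the reads of a gene by its length and scales each library to the same total, and is the scale on which different genes are compared here.

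Wild-type C57BL/6J mice, an inbred strain, arrived at 6 weeks of age and spent 10 weeks on either a chow in which fat gave 4.5% of the calories or a high fat diet in which it gave 60%. Each of the 4 groups (females and males on either diet) held 4 liver libraries. Since the chow and the high fat diet came from separate suppliers, other components may vary with the fat. RNA came from powdered whole liver, so in each value below fewer cells of a type and less RNA per cell cannot be told apart. Total counts per library were 27566339 to 41420589 in females and 24569706 to 38843167 in males under normal chow, and 22682339 to 29200728 in females and 22228115 to 29173327 in males after high fat feeding. The labels list the libraries as replicates without naming animals, so p-values measure the spread between these libraries. Male high fat replicates 2 and 3 were close to each other, with a chi-square per gene of 3.91, against 50.7 to 279.8 for the other pairs of that group and at least 19.2 for every pair in the other groups. Sampling noise alone gives about 1, but the value does not settle whether they come from separate animals, as no libraries known to share a liver were at hand. They were kept as separate samples. If both come from 1 animal, n = 4 and the SE of that group count it 2 times. The male high fat sum, shares and fold changes that moved most are also given without them, which leaves only replicates 1 and 4 in that group. Fold changes are given with the 2 averaged into 1 library as well. Leaving both out was an alternative added once the data had been seen.

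Cyp3a enzymes are haem-containing monooxygenases of the endoplasmic reticulum that oxidise steroids, bile acids and a large share of drugs, with electrons passed on by the cytochrome P450 reductase Por. In liver their genes are classic targets of the xenobiotic receptor PXR, encoded by Nr1i2, and of its relative CAR, encoded by Nr1i3, both of which pair with RXR. Some mouse Cyp3a genes are expressed mainly in females, under the control of the sex-specific pattern of growth hormone release, which acts through Stat5b. Cyp3a11 is the major hepatic form and is used as the standard readout of PXR activity.

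All 8 genes lie on chromosome 5. In the GENCODE M21 annotation, Cyp3a13 stands apart from the others, which follow in the order Cyp3a16, Cyp3a41b, Cyp3a41a, Cyp3a44, Cyp3a11, Cyp3a25 and Cyp3a59. Cyp3a59 is on the plus strand and the other 7 are on the minus strand, and no member shares an exon with another gene. Their coding sequences are 1509 or 1512 bases long. Cyp3a41a and Cyp3a41b differ at 2 coding positions (99.9% identity), and Cyp3a25 and Cyp3a59 differ at 38 (97.5%). Cyp3a11 is 95.2% identical to Cyp3a41a and 76.1% identical to Cyp3a25. Cyp3a13 is the most distant member, with 76.8% as its highest identity, to Cyp3a25.

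**Figure D1:**
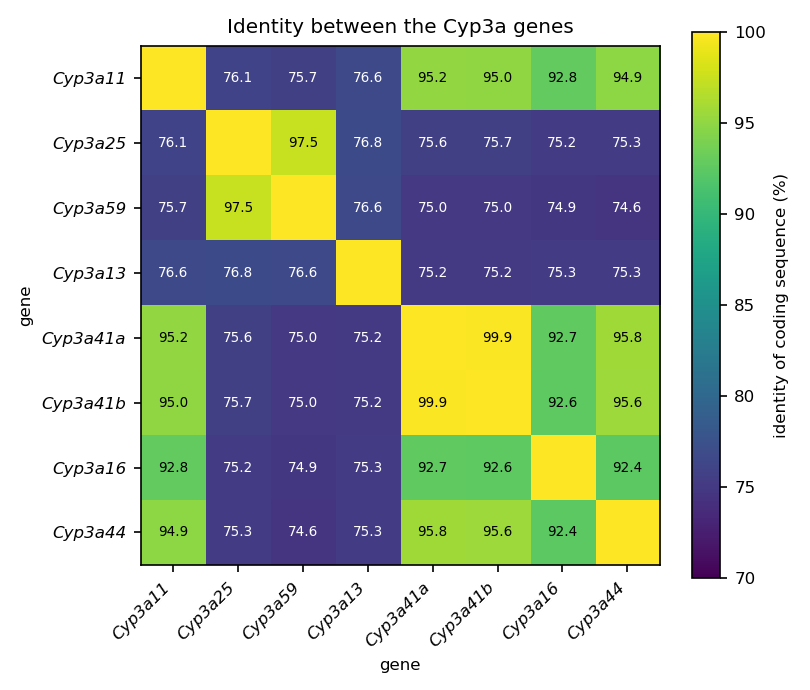
Identity of the coding sequences (percent of aligned positions, colour scale from 70 to 100) for each pair of the 8 genes. Cyp3a11, Cyp3a16, Cyp3a41a, Cyp3a41b and Cyp3a44 form a block above 92%, Cyp3a25 and Cyp3a59 a pair at 97.5%, and Cyp3a13 stands alone.

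The counting program divides reads that map to several genes by a likelihood model, so values of near-identical copies are estimates. In GENCODE M21 transcripts, 9.18% of the 100-base windows of Cyp3a41a and 11.8% of those of Cyp3a41b occur in no other gene. The same share was at least 93.95% for each other member. Single values of Cyp3a41a and Cyp3a41b are therefore uncertain, and their sum is given beside them. The deposited counts of the 8 members were fractional in 56.25% to 100% of entries, against 4.89% over all genes.

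The sequences before the transcription starts are shown because the members fall into sets by promoter similarity, which match the sets by expression only in part. RefSeq (GRCm38.p6) gave promoters for 8 of 8 members, in 9 entries. Only the entry with the highest start coordinate was used for each gene, and no further entry was examined for the members. The 250 bases before the start of 5 of them follow, 5′ to 3′ on the strand of each gene, which is the minus strand for all 5. The windows are chr5:145879855-145880104 for Cyp3a11, chr5:146009619-146009868 for Cyp3a25, chr5:145469724-145469973 for Cyp3a16, chr5:145720137-145720386 for Cyp3a41a and chr5:145805875-145806124 for Cyp3a44. Capitals mark matches to TATAAA (the TATA box letters), to the nuclear receptor core motifs AGGTCA or AGTTCA on either strand, and to the CEBP motif TTGCNNAA on either strand.
Cyp3a11: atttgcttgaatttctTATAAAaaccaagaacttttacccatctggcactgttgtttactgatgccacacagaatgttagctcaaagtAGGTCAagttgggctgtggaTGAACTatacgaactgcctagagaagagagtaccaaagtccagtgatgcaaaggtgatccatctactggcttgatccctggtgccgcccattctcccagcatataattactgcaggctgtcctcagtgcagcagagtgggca
Cyp3a25: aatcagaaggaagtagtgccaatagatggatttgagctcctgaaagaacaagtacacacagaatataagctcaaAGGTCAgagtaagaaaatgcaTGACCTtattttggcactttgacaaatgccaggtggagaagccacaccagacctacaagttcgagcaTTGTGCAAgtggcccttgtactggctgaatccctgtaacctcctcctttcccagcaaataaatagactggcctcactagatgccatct
Cyp3a16: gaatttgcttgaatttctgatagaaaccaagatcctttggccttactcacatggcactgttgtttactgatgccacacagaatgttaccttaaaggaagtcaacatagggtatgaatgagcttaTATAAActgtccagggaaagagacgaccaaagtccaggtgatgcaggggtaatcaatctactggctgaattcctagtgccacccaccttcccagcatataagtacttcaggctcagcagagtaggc
Cyp3a41a: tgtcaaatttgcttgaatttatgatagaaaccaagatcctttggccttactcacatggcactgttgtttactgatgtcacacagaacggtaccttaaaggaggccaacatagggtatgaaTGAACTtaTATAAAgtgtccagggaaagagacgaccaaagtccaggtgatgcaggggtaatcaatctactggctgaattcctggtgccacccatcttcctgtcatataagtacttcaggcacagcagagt
Cyp3a44: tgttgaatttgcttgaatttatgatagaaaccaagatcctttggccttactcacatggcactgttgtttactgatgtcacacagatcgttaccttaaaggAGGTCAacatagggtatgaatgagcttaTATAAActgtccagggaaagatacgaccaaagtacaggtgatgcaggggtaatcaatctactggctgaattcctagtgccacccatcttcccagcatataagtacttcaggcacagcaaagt

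Over windows of 300 bases (250 before and 50 after the start), the promoters of Cyp3a16, Cyp3a41a and Cyp3a44 were 92.1% to 93.4% identical to each other, and those of Cyp3a25 and Cyp3a59 were 95.7% identical. That of Cyp3a11 was 70.4% identical to that of Cyp3a41a, 52.85% to that of Cyp3a25 and 53.9% to that of Cyp3a59. Its promoter is thus nearer to that of Cyp3a41a, although its levels went with those of Cyp3a25 and Cyp3a59, as given below. TATAAA occurred in 5 of the 8 promoters (Cyp3a11, Cyp3a16, Cyp3a41a, Cyp3a41b and Cyp3a44), against 13.6% of 32851 RefSeq promoters of the same length. Those of Cyp3a16, Cyp3a41a, Cyp3a41b and Cyp3a44 are 89.9% to 97% identical to each other. Matches in promoters so alike are not independent, here and for the core motif below. It lay from -234 to -229 in Cyp3a11 and from -122 to -117 in Cyp3a41a and Cyp3a44, positions counted from the start. A core motif AGGTCA or AGTTCA occurred in 6 of 8 (all but Cyp3a13 and Cyp3a16), against 27.7% of all promoters. In Cyp3a11 the matches lay from -162 to -157 and from -142 to -137, and in Cyp3a25 from -176 to -171 and from -155 to -150. The CEBP letters occurred in Cyp3a25 only (10.8% of all promoters). The STAT5 motif TTCNNNGAA (8.3% of all) matched no member. No member held a pair of core motifs in the spacings bound by HNF4 (DR1) or PXR (DR3, DR4 and ER6), found in at most 0.082% of all promoters. No match says only that these letters are not in this window.

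Summed over the 8 genes, the family stood at 7135, 7466, 7049 and 7421 TPM in replicates 1 to 4 of females on the normal diet, and at 3458, 4349, 6710.1 and 5381 TPM on the high fat diet. In males the sums were 5640.4, 7145, 6500.3 and 6749.8 TPM under normal chow and 543, 1354, 1360.4 and 635 TPM after high fat feeding. On the normal diet the sexes overlapped. On the high fat diet all sums lay below those of the normal diet within each sex, and the 4 males lay below all other libraries. The mean sum was 1.46-fold lower on the high fat diet in females (7268 ± 207 against 4974 ± 1399 TPM, SD, n = 4) and 6.69-fold lower in males (6509 ± 637 against 973 ± 445 TPM). On the CPM scale (counts scaled by each library's TMM-adjusted total, used below for tests and for changes of 1 gene) the falls were 1.81-fold and 6.96-fold. Without male high fat replicates 2 and 3 the mean sum of that group was 589 TPM, 11.1-fold below the normal diet males. The family took 1.11% to 1.27% of all counts in females and 1.01% to 1.18% in males under normal chow. After high fat feeding it took 0.565% to 1.01% in females and 0.0991% to 0.234% in males.

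**Figure D2:**
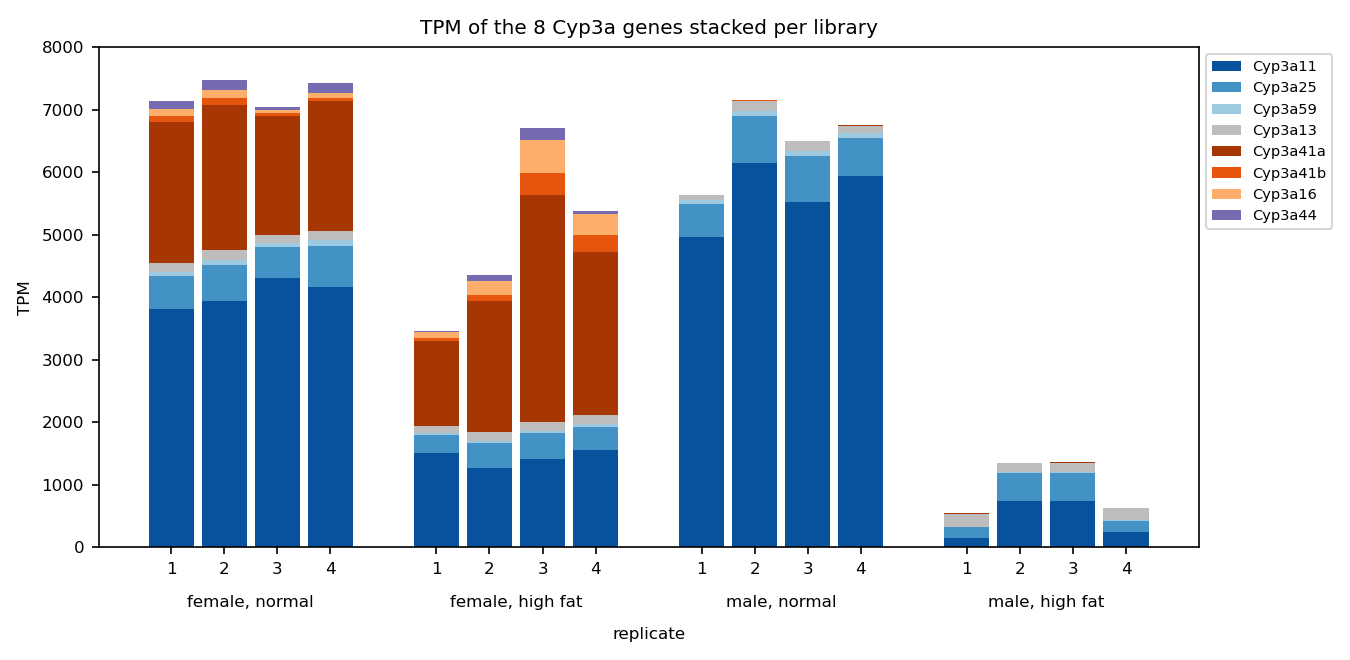
Stacked TPM (linear axis from 0) of the 8 genes in each of the 16 libraries, 1 bar per library. Cyp3a11 and Cyp3a41a make up most of each female bar, Cyp3a11 alone most of each male bar on the normal diet, and the male high fat bars reach at most 1360.4 TPM.

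The make-up of the sum differed between the sexes and with the diet. Cyp3a11 was 55.9% ± 3.78 (SD, n = 4) of the summed TPM in females on the normal diet and 30.6% ± 9.41 on the high fat diet. In males it was 86.7% ± 1.45 and 43.4% ± 13.5. Cyp3a41a was 29.5% ± 2.33 of the sum in females on the normal diet and 47.5% ± 6.1 on the high fat diet, and at most 0.412% in any male library. In males on the high fat diet Cyp3a25 made up 31.8% ± 2.22 and Cyp3a13 22.8% ± 14.8 of the sum, against 10.1% ± 0.983 and 2% ± 0.473 on the normal diet. Without male high fat replicates 2 and 3 these shares were 30.5% for Cyp3a25, 35.35% for Cyp3a13 and 32.5% for Cyp3a11. The larger shares of Cyp3a13 and Cyp3a25 there went with lower sums, and for Cyp3a25 with a lower level as well.

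Cyp3a11 (ENSMUSG00000056035.9), the major hepatic form, was lower on the high fat diet in both sexes. In females it had 3814, 3944, 4308 and 4169.8 TPM on the normal diet and 1507, 1263, 1411 and 1552 TPM on the high fat diet. In males it had 4955, 6152, 5518 and 5931 TPM on the normal diet and 144, 739, 735 and 244 TPM on the high fat diet. The 4 groups followed in the order male normal, female normal, female high fat and male high fat, and no neighbouring groups overlapped. In females Cyp3a11 fell by 1.74 ± 0.38 (SE) on the log2 CPM scale (edgeR quasi-likelihood test, Benjamini-Hochberg adjusted p = 0.00922), a 3.35-fold change. In males the log2 fold change was -3.66 ± 0.41, a 12.7-fold lower level. Within the male high fat group, replicates 1 and 4 stood below replicates 2 and 3. With replicates 2 and 3 both left out, the male log2 fold change was -4.96 ± 0.21, and with them averaged into 1 library it was -3.99.

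The 13 listed acute phase genes, which the liver raises in inflammation, differed in the same male libraries. Their summed CPM was 60701 and 31847 in male high fat replicates 1 and 4, and 10975 and 11170 in replicates 2 and 3. In males on the normal diet the sum was 24056 and 22241 CPM in replicates 2 and 3, which had 6152 and 5518 TPM of Cyp3a11, and 11564 and 12728 CPM in the others. In females on the high fat diet it was 11735 to 15328 CPM. The part of these genes in the male Cyp3a11 values was not tested.

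**Figure D3:**
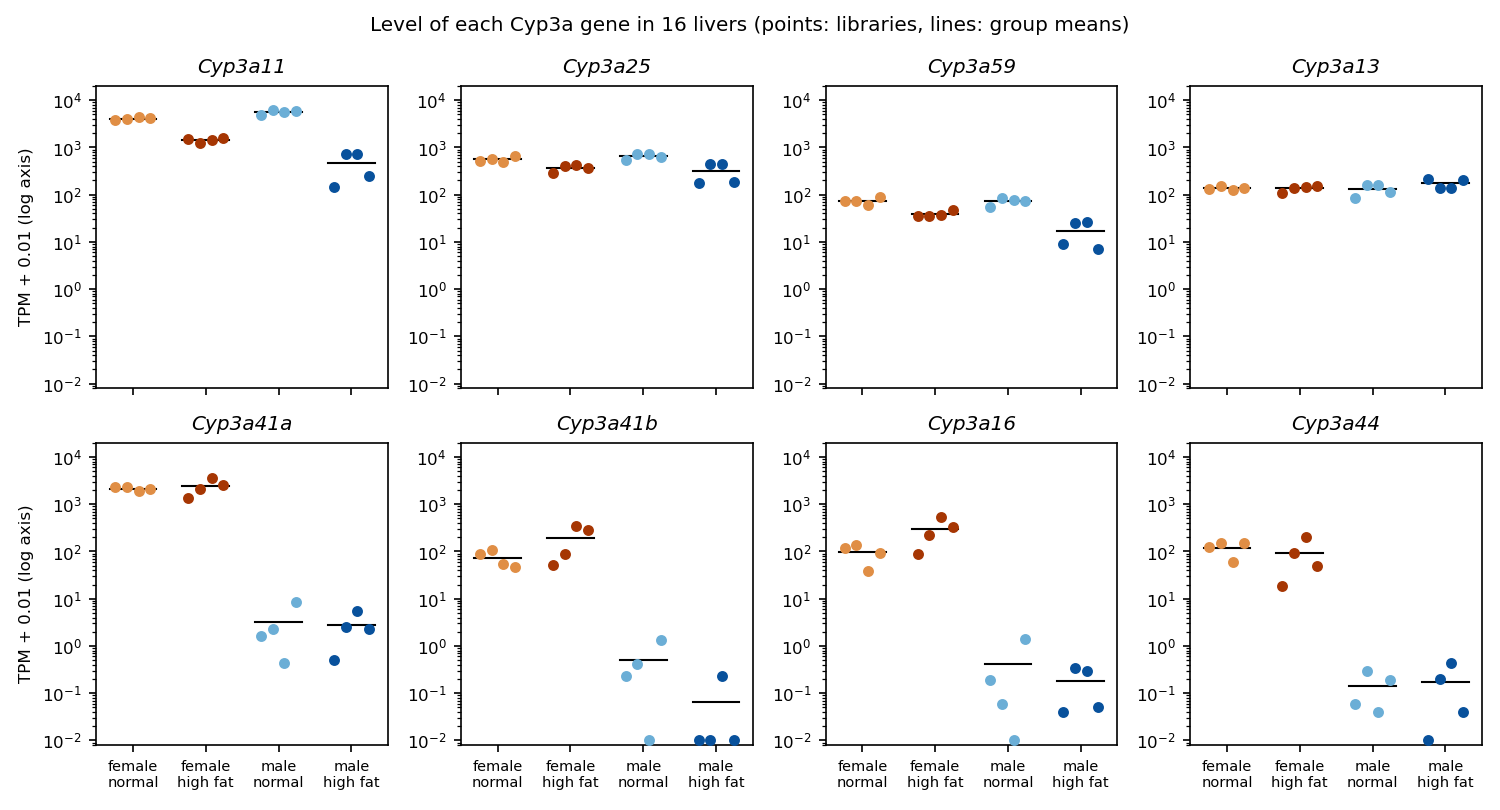
TPM plus 0.01 (log axis) of each gene in the 4 groups, with 4 points for the libraries in replicate order and a line for the group mean. Cyp3a11, Cyp3a25 and Cyp3a59 are lower on the high fat diet in both sexes, Cyp3a13 is similar in all groups, and the 4 genes of the lower row lie near 0 in males.

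Cyp3a25 (ENSMUSG00000029630.16) and Cyp3a59 (ENSMUSG00000061292.11), a similar pair at one end of the cluster, were also lower on the high fat diet. Cyp3a25 had 521, 578, 495 and 657 TPM in females on the normal diet and 289, 408, 416 and 369.6 TPM on the high fat diet. Its male libraries had 542, 743, 741 and 618 TPM on the normal diet and 177, 448, 452 and 181 TPM on the high fat diet. The diets did not overlap in either sex. In females its log2 fold change was -0.85 ± 0.27 (SE), and the edgeR adjusted p of 0.0525 did not pass the threshold of 0.05. It passed in 9 of 25 alternatives, among them the fit of females alone (0.00466) and the fits without male high fat replicate 1, 2, 3 or 4 (0.0286, 0.041, 0.0373 and 0.0282). In males its log2 fold change was -1.14 ± 0.27, and -1.98 ± 0.19 without male high fat replicates 2 and 3. With these averaged into 1 library it was -1.37.

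Cyp3a59 had 75.1, 74.5, 60.15 and 90.9 TPM in females on the normal diet and 35.2, 35.4, 36.6 and 46.5 TPM on the high fat diet. In males it had 55.5, 85.2, 76.7 and 74.6 TPM on the normal diet and 8.85, 24.6, 25.95 and 7.23 TPM on the high fat diet. Here too no high fat library reached the normal diet range of its sex. In females Cyp3a59 fell by 1.22 ± 0.34 on the log2 scale (edgeR adjusted p = 0.0319). That call was lost without female normal replicate 1, 2 or 4 (adjusted p = 0.0772, 0.0765 and 0.0873) and without female high fat replicate 1, 2, 3 or 4 (0.0809, 0.0701, 0.0628 and 0.0616), with a log2 fold change of -1.3 to -1.11 in these fits. In males the log2 fold change was -2.19 ± 0.35, and -3.27 ± 0.21 without male high fat replicates 2 and 3. With these averaged into 1 library it was -2.47. The TPM ratio of Cyp3a59 to Cyp3a25 was 0.121 to 0.144 in females on the normal diet and 0.0868 to 0.126 on the high fat diet.

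Cyp3a13 (ENSMUSG00000029727.8), the most divergent member in sequence, was the one whose levels overlapped between all neighbouring groups. It had 129, 153, 127 and 136 TPM in females on the normal diet, and 109.98, 141, 147 and 150.1 TPM on the high fat diet. In males it had 85.9, 162, 164 and 114 TPM on the normal diet and 212.5, 139.8, 140.8 and 200.4 TPM on the high fat diet. Male high fat replicates 1 and 4, the lowest in Cyp3a11, were the highest of all 16 in Cyp3a13. The female diet difference was -0.24 ± 0.18 on the log2 CPM scale (edgeR adjusted p = 0.406), and its sign changed in TPM. The male difference was 0.33 ± 0.18, and 0.56 ± 0.19 without male high fat replicates 2 and 3. With these averaged into 1 library it was 0.41.

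Cyp3a41a (ENSMUSG00000075551.5), Cyp3a41b (ENSMUSG00000075552.5), Cyp3a16 (ENSMUSG00000038656.6) and Cyp3a44 (ENSMUSG00000054417.6) were present in females and near 0 in males. Cyp3a41a had 2269, 2324, 1905 and 2079 TPM in females on the normal diet and 1357, 2094, 3625 and 2604 TPM on the high fat diet. In males it had 1.58, 2.3, 0.43 and 8.34 TPM on the normal diet and 0.5, 2.57, 5.61 and 2.28 TPM on the high fat diet. The female diet groups overlapped, with a wider spread on the high fat diet (SD 952 against 191 TPM). Cyp3a41b had 88.3, 105.1, 55.1 and 46.5 TPM in females on the normal diet and 51.7, 88.3, 343 and 280.5 TPM on the high fat diet, and at most 1.36 TPM in males. Summed, the 2 copies had 2218 ± 216 TPM on the normal diet and 2611 ± 1087 TPM on the high fat diet in females (SD, n = 4).

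Cyp3a16, named in older work as a fetal form, had 116.6, 134, 38.75 and 94 TPM in females on the normal diet and 88.45, 227, 528 and 329 TPM on the high fat diet. Cyp3a44 had 121.7, 152, 59.3 and 149 TPM on the normal diet and 18.5, 92.35, 203 and 49.4 TPM on the high fat diet. In males Cyp3a16 was at most 1.38 TPM and Cyp3a44 at most 0.43 TPM. For both genes the female diet groups overlapped, and high fat replicate 3 was the highest of its group in all 4 genes of this set.

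By edgeR 0 of these 4 genes passed for the diet in females, with 0 at an unadjusted p under 0.05 and 0 by DESeq2. The log2 fold changes were -0.07 ± 0.68 for Cyp3a41a (adjusted p = 0.963), 1.11 ± 0.67 for Cyp3a41b (0.305), 1.35 ± 0.67 for Cyp3a16 (0.213) and -0.65 ± 0.61 for Cyp3a44 (0.537). The sign for Cyp3a41a changed with the scaling and with the library left out. Without female high fat replicate 3 the values were 0.62 for Cyp3a41b, 0.86 for Cyp3a16 and -1.46 for Cyp3a44. On log2(TPM + 1) with limma, Cyp3a16 passed (log2 fold change 1.47, adjusted p = 0.0451). No diet fold is given for these genes in males, where the 4 libraries of a diet held between 9.88 and 693 counts of each gene in all.

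The ratio of Cyp3a44 to Cyp3a16 parted the diets in females more clearly than either gene. On the normal diet the ratio of their TPM was 1.04, 1.14, 1.53 and 1.58, and on the high fat diet it was 0.21, 0.407, 0.385 and 0.15. The ranges did not overlap, although both genes ranged widely between livers. The ratio was chosen after its values were seen and carries no test. Cyp3a11 relative to Cyp3a41a was 1.68 to 2.26 on the normal diet and 0.389 to 1.11 on the high fat diet, again without overlap.

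**Figure D4:**
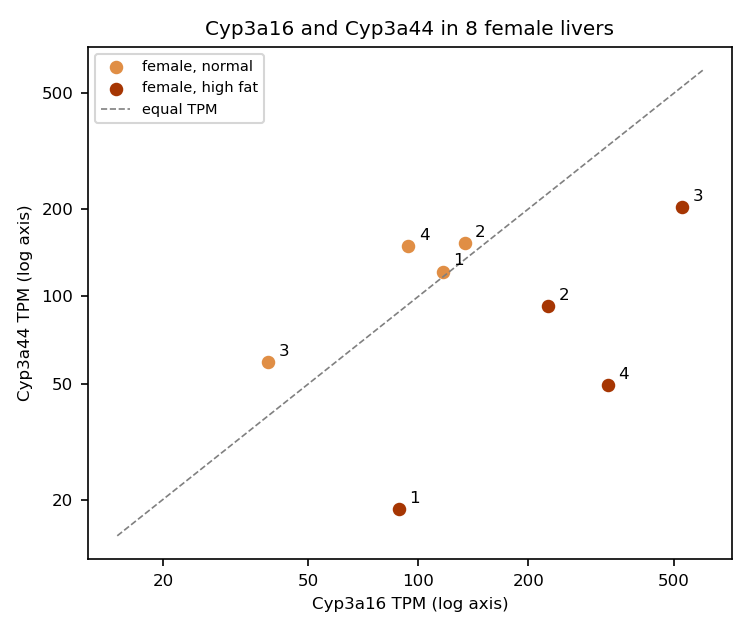
TPM of Cyp3a44 against TPM of Cyp3a16 (both axes logarithmic) in the 8 female livers, numbered by replicate, with a dashed line of equal TPM. The normal diet livers lie just above the line (ratio 1.04 to 1.58) and the high fat livers below it (0.15 to 0.407).

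Counted over the family, 2 of 8 members passed the edgeR test for the diet in females, both lower (Cyp3a11 and Cyp3a59), against 11.5% of the 14781 genes tested. The median log2 fold change of the 8 was -0.44, against 0 over all tested genes. The high fat livers lay apart from the normal ones, in CPM, for 3 of 8 members, against 18.3% of all genes. In males 3 of 8 members passed, all lower, and 3 of 8 did not overlap. The background in males was 11.4% by the test and 18.5% by overlap. Nothing is read from these male counts because the family is taken to have been chosen from that comparison. The female counts may not be free of that choice either.

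The female diet change minus the male diet change was 1.92 ± 0.53 (SE, log2) for Cyp3a11, 0.97 ± 0.47 for Cyp3a59, 0.29 ± 0.38 for Cyp3a25 and -0.57 ± 0.25 for Cyp3a13. By edgeR 0 of 8 members passed (3 at an unadjusted p under 0.05, and 1 by DESeq2), where 0.677% of all genes passed. The difference contains the male high fat levels through which the family was chosen, so nothing is read from these counts. Without male high fat replicates 2 and 3 the differences were 3.22 for Cyp3a11, 2.04 for Cyp3a59, 1.13 for Cyp3a25 and -0.81 for Cyp3a13. With these 2 averaged into 1 library they were 2.25, 1.25, 0.53 and -0.65 in the same order.

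**Figure D5:**
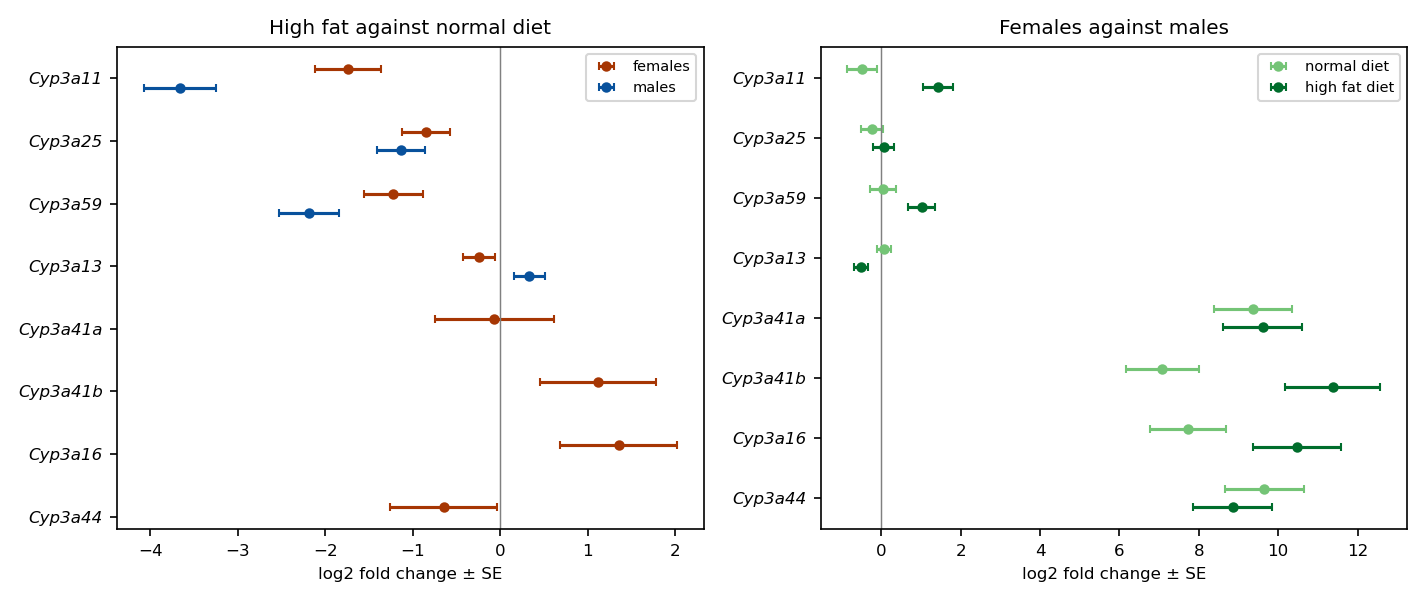
Log2 fold changes with their SE from the edgeR fit: high fat against normal diet in each sex (left) and females against males on each diet (right). The 4 genes near 0 in males have no male diet point, and Cyp3a11, Cyp3a25 and Cyp3a59 lie left of 0 in both sexes.

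Females and males were then compared on each diet. On the normal diet the 4 members present in both sexes did not pass the test (0 of 4, with 0 of 4 at an unadjusted p under 0.05 and 0 of 4 by DESeq2). Cyp3a11 was lower in every female than in every male, with a log2 difference of -0.48 ± 0.37 (SE) and an edgeR adjusted p of 0.41. In the fit of the 2 normal diet groups alone, where the male high fat spread does not enter, that difference was -0.47 (adjusted p = 0.00619), and without male high fat replicates 2 and 3 it was -0.48 (0.019). Cyp3a13, Cyp3a25 and Cyp3a59 differed by 0.07 ± 0.18, -0.23 ± 0.27 and 0.05 ± 0.33 (adjusted p = 0.84, 0.61 and 0.938), and their ranges overlapped.

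On the high fat diet the order of the sexes in Cyp3a11 was the opposite, with every female above every male. The log2 difference was 1.44 ± 0.38 (SE), and 2.74 ± 0.18 without male high fat replicates 2 and 3. Cyp3a59 was also higher in every female than in every male, with a difference of 1.02 ± 0.34, and 2.09 ± 0.2 without those libraries. Cyp3a13 was lower in females in CPM, without overlap, with a difference of -0.51 ± 0.18, and of -0.74 ± 0.19 without them. Cyp3a25 differed by 0.06 ± 0.27, with male replicates on both sides of the females, and by 0.9 ± 0.17 without male high fat replicates 2 and 3. With these 2 averaged into 1 library the differences were smaller than without them, at 1.78 for Cyp3a11, 1.31 for Cyp3a59, -0.57 for Cyp3a13 and 0.31 for Cyp3a25. These sex differences rest on the male high fat levels through which the family was chosen, so they carry no test.

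Of the 4 genes near 0 in males, Cyp3a16, Cyp3a41b and Cyp3a44 passed the filter on low counts only through the females. Their calls had to follow, so their adjusted p-values are left out. Cyp3a41a was low but detected in every male library. None of the 4 is counted as support. By edgeR the females were higher by 9.37 ± 0.98 (SE, log2) for Cyp3a41a on the normal diet (adjusted p = 4.72e-05) and by 9.61 ± 0.99 on the high fat diet. For Cyp3a44 the differences were 9.65 ± 1 and 8.85 ± 0.98. For Cyp3a16 they were 7.73 ± 0.95 and 10.47 ± 1.1, and for Cyp3a41b 7.08 ± 0.92 and 11.37 ± 1.2. These sizes rest on few male counts. Male normal replicate 4 held the most Cyp3a16, Cyp3a41a and Cyp3a41b of the normal diet males, and without it their normal diet differences were 10.27, 10.52 and 8.32. In high fat males Cyp3a41b had 9.88 counts in all, all of them in replicate 3, so its difference there is set by that library. Past the threshold were 4 members on the normal diet, all of them these 4, and 6 on the high fat diet, these 4 included, where 15.7% and 20.4% of all genes passed. The sexes did not overlap for 5 and 7 members, these 4 included, where 22% and 22.7% of all genes did not overlap. Nothing is read from these counts.

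Regulators and partners of the family were read from a list of 24 genes, all of them tested. With high fat feeding 3 were higher and 6 lower in females, and 2 higher and 3 lower in males, where 11.5% and 11.4% of all tested genes passed, with median log2 fold changes of -0.07 and -0.1. Nr1i2 (PXR) fell by 0.79 ± 0.1 (SE, log2; edgeR adjusted p = 0.000109) in females, from 99.5 ± 6.94 to 57.5 ± 6.18 CPM (SD, n = 4). In males it fell by 0.41 ± 0.1 (adjusted p = 0.0143), from 74.4 ± 4.47 to 56.1 ± 5.61 CPM. Nr1i3 (CAR) did not pass in either sex (edgeR adjusted p = 0.655 and 0.671), with 223 ± 15.2 and 197 ± 45.8 CPM in females and 150.4 ± 41.1 and 169 ± 50.8 CPM in males. Por, the electron donor of the enzymes, fell by 0.85 ± 0.13 in females (adjusted p = 0.000619) and by 0.69 ± 0.13 in males (0.00282), from 761 ± 65 to 423 ± 74.8 CPM and from 624 ± 33.4 to 387 ± 46.6 CPM.

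Hnf4a, a nuclear receptor that maintains hepatocyte gene expression, fell by 0.6 ± 0.12 in females (edgeR adjusted p = 0.00331) and by 0.47 ± 0.11 in males (0.0139). In females Cebpb (log2 fold change -1.15), Alas1 (-0.81), the first enzyme of haem synthesis, and Pgrmc1 (-0.46), a haem-binding partner of P450 enzymes, also fell, and the hepatocyte factors Foxa2 (0.78) and Cebpa (0.35) were among those that rose. In males Stat5a (1.15) and Stat5b (0.71), mediators of growth hormone, rose. On the normal diet, where 15.7% of all genes passed, 3 of the 24 were higher in females and 1 was lower. The higher ones were Nr1i2 (0.42 ± 0.1, edgeR adjusted p = 0.00908), Cux2 (6.03), a female-specific repressor, and Cyb5a (0.5). On the high fat diet, where 20.4% of all genes passed, 3 were higher in females (Cux2 at 6.7, Nr0b2 at 1.65 and Rxrb at 0.37) and 4 lower (Onecut1 at -2.08, Cebpb at -0.9, Alas1 at -0.67 and Hnf4a at -0.46). Cux2 had means of 0.246 and 0.17 CPM in males on the normal and high fat diets, against 17.9 and 17.8 CPM in females. It passed the filter on low counts only through the females. Its calls on both diets had to follow, so nothing is read from them. For the difference of the diet changes edgeR called 0 of the 24.

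Other genes known as PXR or CAR targets were mostly lower on the high fat diet where they passed. Of 27 listed, 26 were tested. In females 0 were higher and 7 lower, with a median log2 fold change of -0.62, and 1 was higher and 6 were lower in males, with a median of -0.5. The share of all tested genes that passed, in either direction, was 11.5% in females and 11.4% in males. The largest falls in females were those of Cyp2b10, the standard CAR target (-3.91 ± 0.7 SE, edgeR adjusted p = 0.00407), and Cyp2c55 (-2.81 ± 0.25, 7.15e-06). In males they were those of Cyp2c55 (-3.8 ± 0.26, 5.79e-08) and Ces2a, a carboxylesterase (-2.26 ± 0.14, 1.71e-08). The gene that rose in males was Sult1e1, the oestrogen sulfotransferase (2.54 ± 0.47, 0.00208), from 0.353 ± 0.234 to 2.1 ± 1.04 CPM (SD, n = 4). It was also the 1 gene of the list whose diet change differed between the sexes (-4.08 ± 0.64, adjusted p = 0.00582). Between the sexes, where 15.7% of all genes passed on the normal and 20.4% on the high fat diet, 11 of the 26 were higher and 2 lower in females on the normal diet, where Sult2a1 (8.93) and Akr1b7 (3.18) led the higher genes and Cyp2c55 (-0.86) and Ces2a (-0.45) were the lower ones. Under high fat feeding 10 were higher, led by Sult2a1 (9.7) and Akr1b7 (3.04), and 3 lower, led by Sult1e1 (-1.69) and Aldh1a1 (-1.31). Akr1b7 had means of 0.246 and 0.143 CPM in males on the normal and high fat diets, against 2.34 and 1.18 CPM in females. It passed the filter on low counts only through the females, so its calls between the sexes had to follow. Sult2a1 had means of 0.963 and 0.664 CPM in males, so its sizes rest on few male counts.

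Other lists were read in the same fits, in which 11.5% of all genes passed for the diet in females and 11.4% in males. Of 6 hepatocyte markers, 3 fell in females (Tat, Cps1 and Hnf4a) and 3 in males (Alb, Tat and Hnf4a). Their summed CPM was 99942 to 112970 in females and 79687 to 89955 in males under normal chow, and 76927 to 92915 and 49184 to 71458 after high fat feeding, with every marker detected. Of 12 pericentral hepatocyte genes, which mark the zone around the central vein where Cyp3a11 is also highest, 1 rose in females and 6 rose in males, and none fell. Of 13 acute phase genes, 0 passed in females and 1 rose in males (Orm3). Of 6 macrophage markers, Cd68 rose in both sexes, with summed CPM of 164 to 226 and 255 to 356 in females and 139.7 to 210.1 and 120 to 251 in males. Of 5 stellate cell markers, Des and Col1a1 rose in females. The part of these lists in the Cyp3a values was not tested.

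Intestine also expresses Cyp3a genes, and its markers Sis, Cdx2 and Lct were at 0 in every library. Of the 5 listed enterocyte genes only Fabp2, which liver also expresses, was tested, and it rose in both sexes. Of the adipocyte markers Cfd rose in males, of the cholangiocyte markers Krt19 fell in males, and no tested T and B cell, endothelial or pancreatic acinar marker passed for the diet in either sex.

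Within a sex, the members fell into those that followed Cyp3a11 and those that did not. Over the 8 libraries of a sex, Pearson's r of log2 CPM between Cyp3a11 and Cyp3a59 was 0.952 in females and 0.98 in males, and between Cyp3a11 and Cyp3a25 it was 0.888 and 0.945. Between Cyp3a11 and Cyp3a13 it was 0.569 in females and -0.652 in males. Cyp3a11 and Cyp3a41a had r of 0.195 in females, and Cyp3a41a and Cyp3a44 had 0.863. The members that did not follow Cyp3a11 were not all alike. In females Cyp3a44 had r of 0.373 with Cyp3a16 and 0.347 with Cyp3a41b, but 0.88 with Cyp3a13 and 0.779 with Cyp3a25. In males Cyp3a11 and Cyp3a41b had 0.638. These are descriptions over libraries that share diet groups.

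Among 10641 eligible genes outside the family, those most like Cyp3a11 over the 16 libraries were Gstm3 (Pearson r = 0.962), Gstm1 (0.954) and Gm2a (0.952). Both Gst genes encode glutathione transferases and are in the list of PXR or CAR targets, and Gm2a encodes a lysosomal lipid-binding activator. These values for Cyp3a11 include the male high fat levels through which the family is taken to have been chosen, so they are a description only. Those most like Cyp3a41a were the sulfotransferase genes Sult2a2 (0.996) and Sult2a1 (0.995) and the P450 gene Cyp2a4 (0.992). Those most like Cyp3a16 were Sult2a2 (0.984), Cyp2b13 (0.98) and Sult2a1 (0.98). The values for Cyp3a16 and Cyp3a41a are set by the gap between the sexes, and Sult2a2, Sult2a1, Cyp2a4 and Cyp2b13 have close copies of their own between which reads are divided.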

How the data were processed

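Liver RNA of 16 libraries was analysed from 2 gene tables. The authors deposited expected counts and TPM of 78317 genes, made with STAR and RSEM on GRCm39 per the submitters' processing notes (versions not given in the sources used here). Expected counts were rounded. Genes kept by filterByExpr of edgeR 4.0.16 (R 4.3.3) numbered 14781, with 99.94% of counts. The robust quasi-likelihood test with TMM scaling was fitted to all libraries with 1 mean per group, and p-values (two-sided) were adjusted by Benjamini-Hochberg over all tested genes, with a threshold of 0.05. The SE is the log2 fold change over the square root of F. The fit was tested on simulated data. Log2 CPM used a prior count of 2. DESeq2 1.42.0 and limma 3.58.1 on log2(TPM + 1) were alternatives, with others in the closing section. Promoters and coding sequences (GENCODE M21, GRCm38) were aligned globally with Biopython 1.88. They stem from an older build than the counts, so they serve only for sequence.

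Members and lists were chosen with earlier results of these data known. Results for 1 listed item are counted within its list and otherwise not reported here. Named are all members, list genes by fixed rules, and the 3 genes most correlated with Cyp3a11, Cyp3a16 and Cyp3a41a. Depths per library open the report, and 4 libraries per group limit the precision.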

Additional observations from a re-analysis of the deposited data

Results flagged for a closer look

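Within groups of 4 libraries, 3 values stood apart from the other 3 by Dixon's ratio. Such a flag arises by chance in about 1 of 20 groups, and 8 genes in 4 groups were examined. Cyp3a59 had 46.47 TPM in female high fat replicate 4, against 35.2 to 36.6 TPM in the others, which still left it below every normal diet female. Cyp3a16 had 1.38 TPM in male normal replicate 4, against at most 0.18 TPM in the others. Cyp3a41b had 0.22 TPM in male high fat replicate 3 and was listed at 0 in the others.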

How the results depend on the processing

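The count of members called for the diet in females was 2, and it was 1 with no filter on low counts, 1 by limma on log2(TPM + 0.1), and 1 to 3 with 1 library left out. It was 1 without female normal replicate 1, 2 or 4 or without any single female high fat replicate. For the difference of the diet changes it was 0, with 3 at an unadjusted p under 0.05, against 1 by DESeq2, 0 to 1 with 1 library left out, and 3 without male high fat replicates 2 and 3. Nothing is read from the counts for that difference, which contains the values through which the family was chosen. The counts for the diet in males (3), and for the sexes on the normal (4) and high fat diet (6), stayed within 1.5 times under every alternative run. The log2 ratio of the male sums on the high fat and normal diet was -3.47 without male high fat replicates 2 and 3, against -2.74. The female diet difference of Cyp3a13 turned to 0.0011 on both log2(TPM + 1) and log2(TPM + 0.1). That of Cyp3a41a turned to 0.11 without TMM and to 0.0904 on both TPM scales, and ranged from -0.36 to 0.13 with 1 library left out. With 1 library left out, the sex differences ranged from -0.0638 to 0.171 for Cyp3a13 and from -0.0369 to 0.186 for Cyp3a59 on the normal diet, and from -0.14 to 0.31 for Cyp3a25 on the high fat diet. Without TMM the median log2 fold change of all genes in females was 0.19, with 2318 genes higher and 372 lower, against 848 and 852 with TMM. On log2(TPM + 1) it was 0.15, with 2644 higher and 282 lower, so female changes in TPM are to be read relative to that shift. Males had 891 higher and 793 lower with TMM, against 1358 and 472 without it (median 0.1) and 899 and 443 on log2(TPM + 1). The sexes on the high fat diet had 1306 and 1716 with TMM, 2318 and 1048 without it (median 0.12), and 2957 and 753 on log2(TPM + 1). The cause of the calls that changed was not tested. Protein identity was planned and not run, and coding sequences were compared in its place. The difference of the diet changes has no fit of fewer groups. Replicate numbers are shared between groups, but none of 24 same-numbered pairs correlated over 0.1 (highest 0.0962). That gave no sign that the numbers pair the livers. Pairs with different numbers were not compared, so pairing is not excluded. With the replicate block 3 members were called in females, 3 in males, 4 and 5 between the sexes on the normal and high fat diets, and 0 for the difference. Shared reads and 4 libraries per group limit the values of Cyp3a41a, Cyp3a41b and of genes near 0 in males.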
